A study of Neogale vison with 6 samples.

Results

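Ubiquitin ligases attach the small protein ubiquitin to their substrates, and deubiquitinases take it off again. The mRNA levels of 4 gene families of this system were compared between Mv1Lu cells subjected to cholesterol depletion (CD) and untreated cells. The families were chosen by symbol: TRIM, RNF, USP and the F-box genes FBXL, FBXO and FBXW (FBX), each symbol being a family name followed by a number and, in some RNF and USP genes, a letter. The rule found 195 of the 24526 genes in the count table, all protein coding, of which 43 were TRIM, 65 RNF, 40 USP and 47 FBX genes.

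Ubiquitin is activated by an E1 enzyme, passed to an E2 enzyme and placed on a substrate with the help of an E3 ligase. Most TRIM and RNF proteins are E3 ligases with a RING domain, which binds the E2. F-box proteins are the substrate receptors of SCF ligases, in which CUL1 and SKP1 form the scaffold and adaptor. USP proteins are cysteine proteases that cleave ubiquitin from proteins. Chains of ubiquitin send proteins to the proteasome or mark cargo for autophagy, and several ligases of the endoplasmic reticulum (ER) control the enzymes and receptors of cholesterol metabolism.

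Mv1Lu is an established epithelial cell line of mink (Neogale vison) lung. The control cells were untreated. The methods name DMEM as the medium in which the line was grown and, for another assay, full fetal calf serum for the untreated cells, so the serum may have differed between the groups. For CD, cells received 50 µM lovastatin, an inhibitor of HMG-CoA reductase, together with 50 µM mevalonate for 16 h, in medium with 10% lipoprotein-deficient serum (LPDS). Statin, mevalonate and LPDS were given together, and their shares in a difference cannot be told apart. Each group had 3 libraries of poly(A) RNA, and nothing in the sources used here says whether they came from separate cultures, so p-values measure the spread between these libraries, which may be technical.

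The libraries held 13473820 to 18633764 reads on genes. The members took 0.834% to 0.842% of these reads in control and 0.844%, 0.813% and 0.713% in CD replicates 1, 2 and 3. Of 2 genes taken as a check of the treatment, 1 was called higher and 1 was not called. The gene called higher, HMGCS1, an enzyme of cholesterol synthesis induced when sterols are low, was at 112 to 142 CPM (read counts scaled to the library size after TMM normalization) in control and 1159 to 1638 CPM in CD. Of 3 epithelial markers in the table, KRT19 was at 883 to 1011 CPM in control and 379 to 533 CPM in CD, whereas EPCAM and CDH1 were below 0.5 CPM in every library. Of 5 fibroblast markers 3 fell (COL1A1, COL1A2 and PDGFRB), and their summed level was 227 to 276 CPM in control and 158 to 201 CPM in CD. The alveolar markers SFTPC and SFTPB had 0 counts. With NKX2-1 the alveolar markers summed to 0.331 to 0.860 CPM in control and 0.123 to 0.288 CPM in CD. Of the leukocyte markers PTPRC had 1 count in all, and CD68 rose from 5.13 to 5.62 CPM in control to 16.9 to 22.4 CPM in CD. The part of these shifts in the results was not tested.

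Of the 195 members, 153 had enough reads to be tested and 42 did not, of which 9 had 0 counts in every library. A member was called when its adjusted p in edgeR's quasi-likelihood test, corrected over all 12148 genes tested, was under 0.05. Of the 153, 51 rose (33.3%) and 24 fell (15.7%), and 78 were not called. Of all genes tested, 47.7% were called, 24.8% as higher and 22.9% as lower. The share of members called in either direction, 49.0%, was thus near that of all genes. Among the called members 68.0% were higher, against 52.0% among all called genes. The groups did not overlap for 90 members (58.8%), against 58.0% of all genes. Without control replicate 1 or 3, 33 and 32 members were called higher, and without control replicate 3, 15 were called lower. Calls over all genes dropped too. From 3016 higher and 2784 lower, they went to 2265 and 2214 without control replicate 1 and 2216 and 2194 without control replicate 3. Among the called members 66.0% and 68.1% were then higher.

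The families differed in these counts, and no test of the difference between families was made. Among 41 tested FBX genes 18 rose and 6 fell, with a median log2 fold change of 0.39. Among 49 RNF genes 20 rose and 7 fell, with a median of 0.22. Among 27 TRIM genes 8 rose and 5 fell, with a median of -0.07, and among 36 USP genes 5 rose and 6 fell, with a median of 0.01. The median over all genes was 0.06. Over the same genes DESeq2 gave medians of -0.10 for TRIM and -0.02 for USP, so the USP median changed sign. On leaving out 1 library, where the filter was applied anew, the TRIM median ranged from -0.15 to 0.05. USP genes were called least often, 30.6% of those tested, and none of the rises reached 2-fold. The F-box subfamilies FBXL, FBXO and FBXW had 6, 9 and 3 genes higher and 3, 3 and 0 lower. Several counts were lower without single control libraries, as were the calls over all genes. Those numbered 2265, 2391 and 2216 higher and 2214, 2366 and 2194 lower without control replicates 1, 2 and 3. TRIM rises numbered 5 without control replicate 1. TRIM falls numbered 3 without control replicate 1 or 2 and 2 without control replicate 3. RNF rises numbered 13 without control replicate 1, and RNF falls 4 without control replicate 1 or 3. USP rises numbered 2, 3 and 0 without control replicates 1, 2 and 3 and 3 without CD replicate 1.

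**Figure D1:**
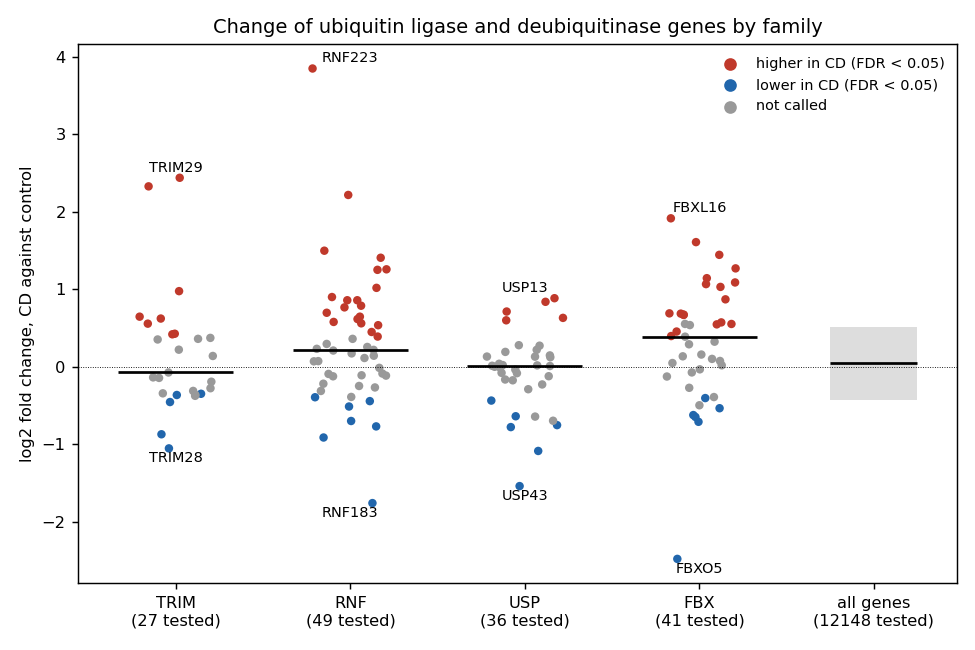
Log2 fold change of CD against control for each tested member, by family, with a bar at the family's median. The right column shows the median and the middle 50% of all 12148 tested genes, and the FBX and RNF bars lie at 0.39 and 0.22, above the bar of all genes at 0.06.

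The CD libraries were not alike. Relative to the mean of the control libraries, the median TRIM gene lay at a log2 value of 0.193, 0.117 and -0.225 in CD replicates 1, 2 and 3. The median USP gene lay at 0.089, -0.039 and -0.245. In FBX the values were 0.342, 0.314 and 0.309, and in RNF 0.353, 0.263 and 0.209. CD replicate 3 was thus apart in TRIM and USP, where it was the lowest CD library for 20 of 27 and 26 of 36 genes, against 41.0% of all genes. It also stood apart over all tested genes. Its Spearman correlations with CD replicates 1 and 2 were 0.971 and 0.984, against 0.991 between CD replicates 1 and 2.

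**Figure D2:**
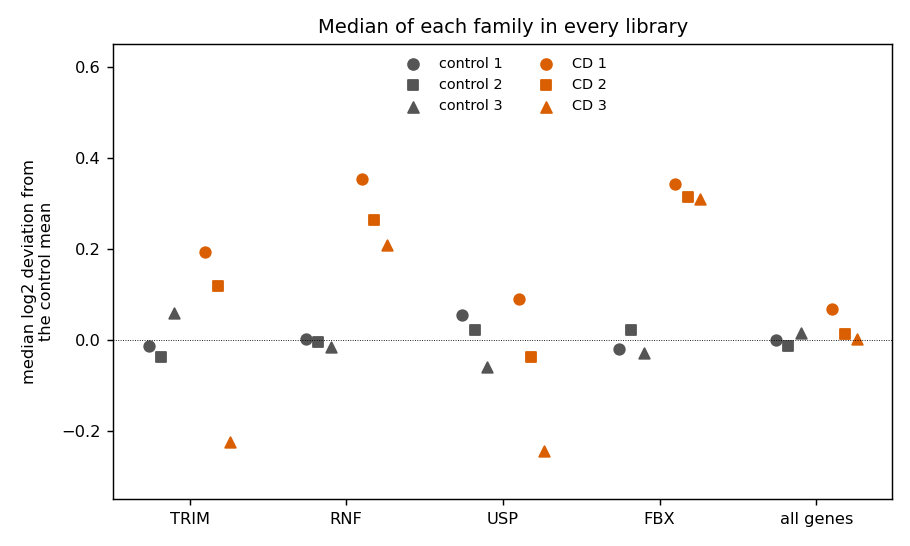
Median over the tested members of each family of the log2 deviation (CPM + 0.5) from the mean of the control libraries, for every library. All 3 CD libraries lie above the control libraries in FBX and RNF, whereas CD replicate 3 lies below them in TRIM and USP.

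The strongest TRIM rises were those of TRIM29 and TRIM16. TRIM29, a TRIM protein without a RING domain found in basal epithelia, was at 2.22, 0.867 and 1.49 CPM in the control libraries and 8.17, 7.79 and 9.004 CPM in CD. It rose by 2.44 ± 0.29 (log2, SE; edgeR adjusted p = 9.1e-05). TRIM16, which acts in the autophagy of damaged lysosomes, was at 9.74, 10.7 and 12.3 CPM in control and 70.9, 60.1 and 33.9 CPM in CD. Its log2 fold change was 2.33 ± 0.25 (edgeR adjusted p = 5.8e-05), and CD replicate 3 was the lowest of the CD libraries. TRIM8, a regulator of cytokine signaling, and TRIM3 rose by 0.98 ± 0.14 and 0.65 ± 0.12.

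TRIM28 (KAP1), the corepressor recruited by KRAB zinc finger proteins, fell the most of the TRIM genes. Its level was 1133, 1087 and 1240 CPM in control and 511, 581 and 578 CPM in CD, a log2 fold change of -1.05 ± 0.12 (edgeR adjusted p = 7.3e-05). The groups lay far apart and the CD libraries close together. TRIM25, which ubiquitinates the RNA sensor RIG-I, was at 124, 109 and 124 CPM in control and 73.7, 73.3 and 48.8 CPM in CD (-0.87 ± 0.16). TRIM26 (-0.45 ± 0.12) and TRIM11 (-0.36 ± 0.13) fell less. The call of TRIM26 was lost without control replicate 3 (edgeR adjusted p = 0.0514). That of TRIM11 was lost without any 1 of control replicates 1 to 3 and CD replicates 1 and 2 (edgeR adjusted p from 0.0587 to 0.130).

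RNF223 was the 1 member that passed the filter on low counts through the CD libraries alone, so it had to differ, and its fitted change is given as a description (log2 3.85). It had 8 reads in the control libraries together and 121 in CD, or 0.215, 0.145 and 0.165 CPM against 2.64, 2.02 and 3.24 CPM. RNF217, a ligase of the RING-between-RING class, was at 2.36, 1.95 and 2.09 CPM in control and 10.8, 9.94 and 9.15 CPM in CD (2.22 ± 0.20, edgeR adjusted p = 1.5e-05). Both genes were named from members whose groups do not overlap, so the separation of their libraries is no added result. RNF103, an ER membrane ligase, was at 13.9, 14.96 and 13.5 CPM in control and 45.3, 36.3 and 38.2 CPM in CD, 2.83-fold higher. RNF44 was at 55.7, 50.3 and 61.3 CPM in control and 154, 159 and 131 CPM in CD (1.41 ± 0.13).

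RNF183, known as a ligase induced by ER stress, was the RNF gene that fell the most. Its level was 8.24, 7.01 and 6.94 CPM in control and 2.77, 2.09 and 1.66 CPM in CD (-1.76 ± 0.23, edgeR adjusted p = 0.00019). RNF40, which with RNF20 ubiquitinates histone H2B, was at 121, 112 and 133 CPM in control and 67.5, 74.2 and 53.0 CPM in CD (-0.91 ± 0.14). RNF26, an ER ligase that positions endosomes, fell by 0.77 ± 0.12, and RNF151 fell by 0.70 ± 0.20. The call of RNF151 was lost without control replicate 1 or 3 (edgeR adjusted p = 0.0729 and 0.0600).

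Among the deubiquitinases, USP43 fell the most, from 40.9, 41.99 and 46.9 CPM in control to 16.0, 15.4 and 13.3 CPM in CD (-1.54 ± 0.14, edgeR adjusted p = 1.9e-05). USP1, which removes ubiquitin from FANCD2 and PCNA in DNA repair, was at 21.996, 24.8 and 20.3 CPM in control and 11.4, 7.61 and 12.7 CPM in CD (-1.08 ± 0.21). USP25 and USP10, a deubiquitinase of p53, fell by 0.78 ± 0.19 and 0.75 ± 0.13. All 4 were named from called members whose groups do not overlap, so that separation is no added result.

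None of the USP genes that rose moved by as much as USP43 or USP1. USP13 was at 5.30, 5.85 and 5.23 CPM in control and 13.5, 9.94 and 6.77 CPM in CD (0.89 ± 0.25). USP16, a histone H2A deubiquitinase, was at 19.8, 23.7 and 15.2 CPM in control and 31.6, 27.9 and 45.6 CPM in CD (0.84 ± 0.22). USP33 (0.72 ± 0.24) and USP54 (0.63 ± 0.18) were the next. Each of these calls was lost when 1 library was left out. The edgeR adjusted p was 0.0557 and 0.0657 for USP13 without control replicate 1 and 3, and 0.0571 for USP16 without control replicate 3. For USP33 it was 0.0599, 0.101, 0.129 and 0.0856 without control replicates 1, 2 and 3 and CD replicate 1. For USP54 it was 0.0672 and 0.0667 without control replicate 2 and 3.

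FBXO5 (EMI1), the inhibitor of the anaphase-promoting complex (APC/C), showed the strongest fall of all members. It was at 11.7, 12.4 and 11.7 CPM in control and 2.15, 1.96 and 2.31 CPM in CD, a log2 fold change of -2.48 ± 0.19 (edgeR adjusted p = 5.5e-06). The replicates of each group lay close together. FBXO46, FBXL6 and FBXL18 fell by 0.71 ± 0.17, 0.65 ± 0.12 and 0.62 ± 0.13.

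The strongest F-box rises were those of FBXL16, FBXL2, FBXO33 and FBXO25. FBXL16 was at 0.931, 1.08 and 0.716 CPM in control and 3.99, 3.497 and 2.74 CPM in CD (1.92 ± 0.27, edgeR adjusted p = 0.00029). FBXL2, an F-box protein anchored to membranes by a geranylgeranyl lipid, was at 1.07, 1.08 and 1.21 CPM in control and 4.24, 2.76 and 3.39 CPM in CD (1.61 ± 0.26). FBXO33 was at 4.08, 3.76 and 3.97 CPM in control and 13.7, 11.04 and 7.42 CPM in CD (1.45 ± 0.24). The naming rule took only members whose groups do not overlap, so the separation of these 3 genes is no added result. FBXO25 was at 18.6, 20.2 and 19.2 CPM in control and 43.3, 47.9 and 48.6 CPM in CD (1.27 ± 0.13).

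**Figure D3:**
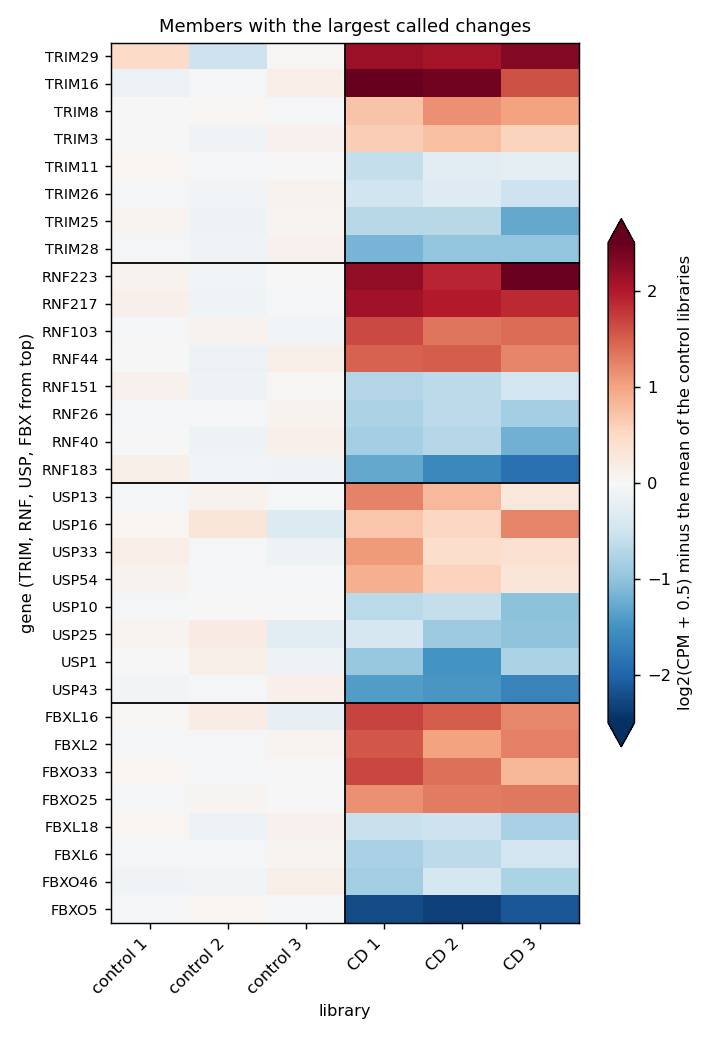
Log2(CPM + 0.5) of each library minus the mean of the control libraries, for the 4 strongest rises and the 4 strongest falls of each family among called members whose groups do not overlap. Red is above and blue below the control mean, and FBXO5 is the deepest blue row.

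Members were next grouped by known role. Their counts stand against 24.8% of all genes called higher and 22.9% called lower, and their medians against 0.06 over all genes. Median log2 changes were 0.43 for the sterol list, 0.23 for ER quality control, 0.55 for the cell cycle, -0.06 for DNA damage and histone ubiquitin, 0.08 for innate immunity and 0.22 for TGF-β and Wnt signaling. Without CD replicate 3 the last pair were 0.34 and 0.38. These lists are small, and several members stand in more than 1 of them. Of 6 members linked to sterol metabolism, 3 rose and 1 fell. FBXW7, the receptor through which SCF degrades nuclear SREBP, the transcription factor of sterol synthesis, was at 12.8, 14.6 and 11.5 CPM in control and 28.1, 21.1 and 33.5 CPM in CD (1.09 ± 0.19, edgeR adjusted p = 0.0012). RNF5, an ER ligase, was at 60.3, 56.3 and 60.3 CPM in control and 86.4, 96.1 and 119 CPM in CD (0.77 ± 0.14). RNF145, a ligase of HMG-CoA reductase, was at 45.4, 54.8 and 53.1 CPM in control and 94.8, 77.8 and 62.5 CPM in CD (0.62 ± 0.16). These CD libraries were all above control, but the call of RNF145 was lost without control replicate 1 (edgeR adjusted p = 0.0564). USP20, a deubiquitinase that stabilizes HMG-CoA reductase, was at 38.5, 33.5 and 38.7 CPM in control and 25.9, 29.5 and 26.5 CPM in CD (-0.43 ± 0.13). Its call was lost without control replicate 1 or 3 (edgeR adjusted p = 0.0969 and 0.0904). RNF139 (TRC8) and USP2 were not called, with log2 fold changes of 0.23 ± 0.13 and 0.13 ± 0.14.

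Sterol-linked ligases under other names moved in both directions. MYLIP (IDOL), a ligase induced by sterols through LXR, was at 9.74, 10.5 and 9.15 CPM in control and 4.98, 4.42 and 3.24 CPM in CD (-1.21 ± 0.21, edgeR adjusted p = 0.00093). MARCHF6, a ligase of squalene monooxygenase, rose by 0.37 ± 0.13 (edgeR adjusted p = 0.040), and this call was lost without any 1 of control replicates 1 to 3 and CD replicates 1 and 2 (edgeR adjusted p from 0.0515 to 0.160) and with DESeq2 (adjusted p = 0.056). SYVN1 (HRD1), a ligase of ER-associated degradation, was not called (-0.24 ± 0.16).

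Of 11 tested members that act in ER quality control, 3 rose (RNF103, RNF5 and FBXO6) and 1 fell (USP25). The call of FBXO6 was lost without any 1 of control replicates 1 to 3 and CD replicate 2 (edgeR adjusted p up to 0.107). Of 15 members linked to autophagy and mitophagy, 6 rose and 3 fell. Without control replicate 1 or 3 the rises numbered 1, as TRIM65, FBXL4, USP8, USP13 and USP33 lost their calls, and so did RNF166, a fall. TRIM16 and, among those that fell, USP10 and RNF41 had the smallest adjusted p. RNF41 (NRDP1) fell from 172 to 181 CPM in control to 117 to 128 CPM in CD (-0.51 ± 0.10). The median of the autophagy members was 0.02, against 0.06 for all genes, and 0.07 against 0.02 without CD replicate 3.

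The members named for muscle atrophy were mostly at or near 0 in these cells. TRIM63 (MuRF1) had 11 reads in control and 27 in CD, TRIM55 0 and 1, and TRIM54 and FBXO40 0 in all libraries. FBXO21, a ligase induced in wasting muscle, fell by 0.40 ± 0.12, a call lost without control replicate 2 or 3 (edgeR adjusted p = 0.0556 and 0.0804). TRIM32 was at 36.0, 36.5 and 40.1 CPM in control and 31.3, 31.0 and 25.4 CPM in CD (-0.36 ± 0.14, edgeR adjusted p = 0.053). It was called as lower with DESeq2 (adjusted p = 0.039) and without CD replicate 1 or 3 (edgeR adjusted p = 0.0432 and 0.0395). Of 6 members found, only 2, FBXO21 and TRIM32, had enough reads to be tested with edgeR. TRIM63, with every CD library above every control library, thus could not be called there. No member of this list was called higher with edgeR, DESeq2 or limma-voom, and 0 of those tested had an unadjusted edgeR p under 0.05 in that direction.

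Of 11 cell cycle members, 6 rose and 1 fell. FBXO5 was the fall, and FBXL2 and FBXW7 had the smallest adjusted p among the rises. Without control replicate 3 the rises numbered 3, as USP16, USP33 and FBXO38 lost their calls. The falls numbered 2 without CD replicate 1 or 3, with USP37 and FBXO4 gained. Of 16 members that act in DNA damage signaling and on histone ubiquitin, 3 fell (TRIM28, USP1 and RNF40). None rose with edgeR, DESeq2 or limma-voom, with 1 (RNF20) at an unadjusted edgeR p under 0.05. Without CD replicate 3, however, RNF20, RNF111, TRIM24 and USP22 were called as well, and 4 were then higher and 3 lower. Calls over all genes rose there too, to 3616 higher and 3606 lower of 12330 tested.

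Among 7 tested members of innate immunity 2 rose and 2 fell. RNF114 rose by 0.65 ± 0.11, as did TRIM65 (0.43 ± 0.15), whereas TRIM25 and TRIM26 fell. The rises numbered 1 without any 1 of control replicates 1 to 3 and CD replicate 2, where TRIM65 was lost, and 4 without CD replicate 3. The falls numbered 1 without control replicate 3. Among 13 members of TGF-β and Wnt signaling 4 rose and 1 fell. RNF146, which ubiquitinates axin, rose by 0.90 ± 0.17. USP4, a deubiquitinase of the TGF-β receptor, was at 189, 190 and 213 CPM in control and 140, 131 and 110 CPM in CD (-0.64 ± 0.12, edgeR adjusted p = 0.0021). Its groups did not overlap.

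FBXW11, an F-box protein that acts in Wnt signaling and on the circadian clock, rose by 0.67 ± 0.13. FBXL5, the iron-sensing receptor for IRP2, was not called (0.29 ± 0.20, edgeR adjusted p = 0.25).

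**Figure D4:**
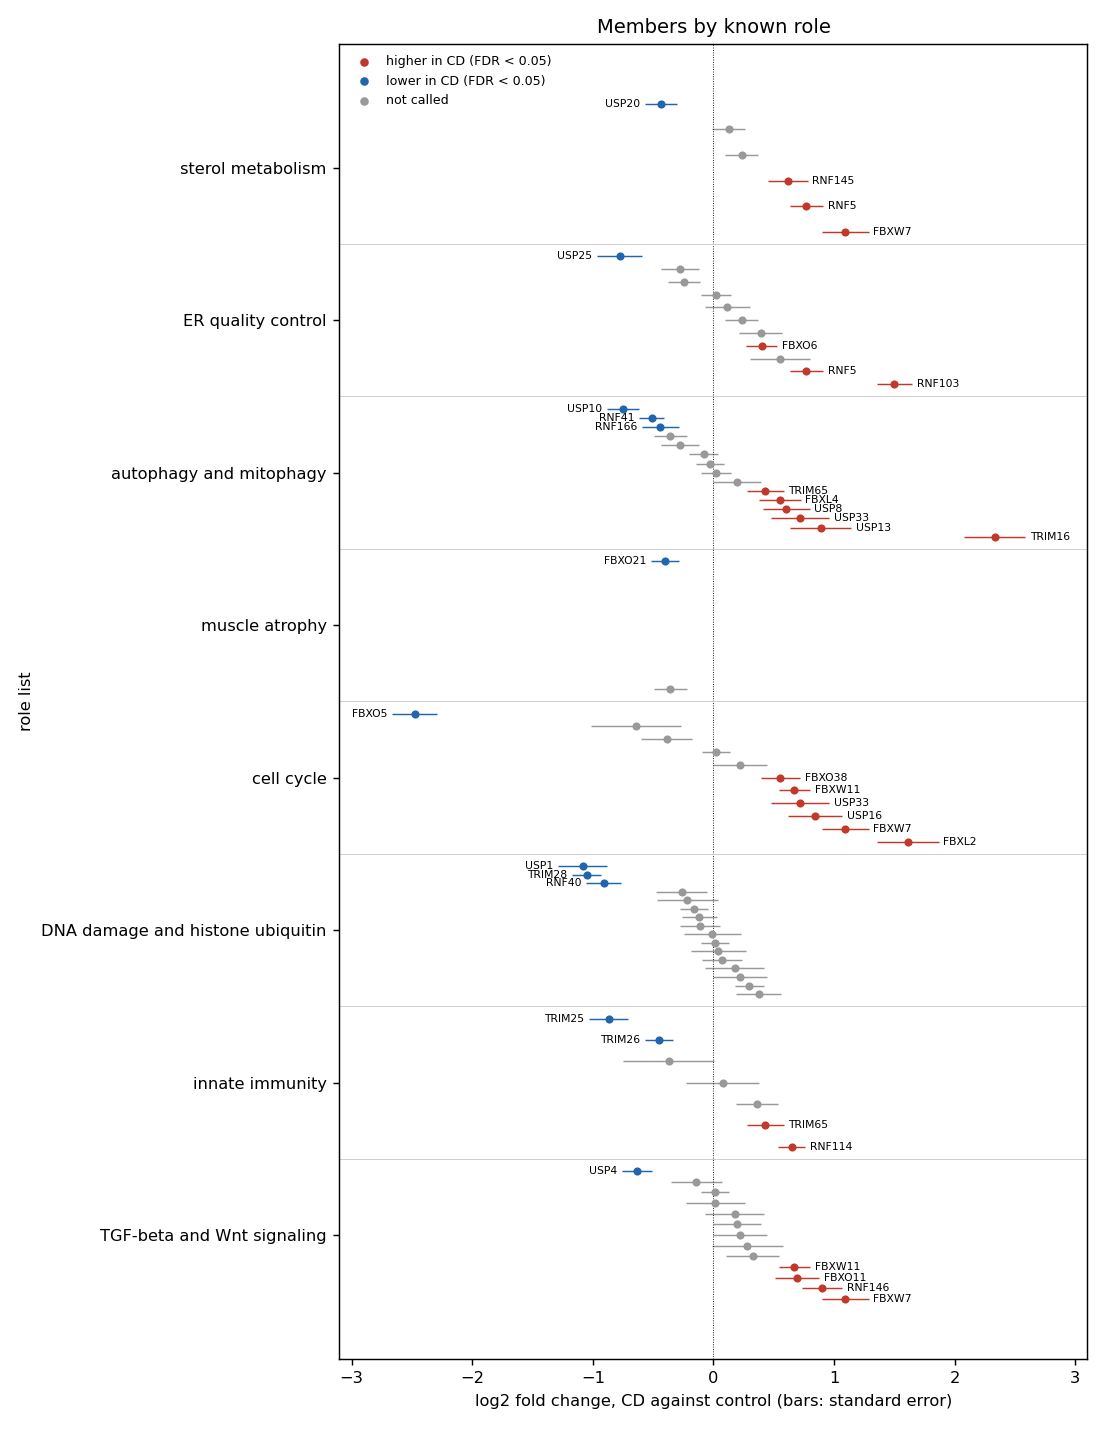
Change in CD on the log2 scale, with bars for the standard error, of the tested members in the role lists from sterol metabolism to TGF-β and Wnt signaling, with called members named. FBXO5 stands at the far left of the cell cycle list and TRIM16 at the far right of the autophagy list.

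The other genes of the pathway were counted from lists of their own, to be read against the same shares of all genes. Median log2 changes were 0.20 for the E2 enzymes, 0.41 for the SCF and cullin core, and 0.34 for both the HECT ligases and the deubiquitinases outside the USP family. Without CD replicate 3 those of the E2 enzymes and HECT ligases were 0.07 and 0.52. Counts without that library are to be read against 3616 genes higher and 3606 lower of 12330 tested. With all 6 libraries these were 3016 and 2784 of 12148. The 4 genes for ubiquitin and E1 enzymes in the table were not called in either direction by edgeR, DESeq2 or limma-voom, and 0 had an unadjusted edgeR p under 0.05. RPS27A, a ubiquitin fusion gene, had a log2 fold change of 0.26 ± 0.24, and of -0.16 without CD replicate 3.

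Of 26 E2 enzymes, 9 rose and 4 fell. UBE2C, the E2 of the APC/C, was at 128, 117 and 125 CPM in control and 26.5, 29.7 and 35.9 CPM in CD (-2.003 ± 0.14, edgeR adjusted p = 3.0e-06). UBE2H was at 27.1, 28.1 and 28.0 CPM in control and 101, 84.7 and 69.6 CPM in CD (1.61 ± 0.15). Without CD replicate 3, 7 E2 genes were lower.

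Of 12 genes of the SCF and cullin core, 5 rose and none fell with edgeR, DESeq2 or limma-voom, with 0 at an unadjusted edgeR p under 0.05. SKP1 was at 65.3, 75.2 and 60.1 CPM in control and 108, 89.9 and 141 CPM in CD (0.76 ± 0.17). CUL1 rose by 0.43 ± 0.11, a call lost without control replicate 3 or CD replicate 2 (edgeR adjusted p = 0.0562 and 0.0532). The rises numbered 3 and 2 without control replicate 1 and 3, and 8 without CD replicate 3.

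F-box proteins with other names fell or were not called. CCNF (cyclin F) was at 239, 230 and 260 CPM in control and 34.7, 37.98 and 34.2 CPM in CD (-2.77 ± 0.12, edgeR adjusted p = 2.2e-07). SKP2, the receptor for the cell cycle inhibitor p27, was at 24.9, 26.2 and 25.5 CPM in control and 14.5, 14.7 and 13.97 CPM in CD (-0.83 ± 0.14). KDM2A was not called (-0.09 ± 0.13). Of 3 TRIM proteins with other names, MID2 rose (1.08 ± 0.19) and MID1 fell (-1.33 ± 0.23), as did PML, whose call was lost without control replicate 3.

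Of 23 HECT ligases 10 rose and 1 fell, with ITCH (0.79 ± 0.18) and HACE1 (0.83 ± 0.20) among the rises. The rises numbered 6 and 5 without control replicate 1 and 3, and 15 without CD replicate 3. The single fall, HUWE1, lost its call without any 1 of the control libraries and CD replicate 2, and the falls numbered 3 and 2 without CD replicate 1 and 3. Of 24 deubiquitinases outside the USP family 10 rose and 1 fell. The rises numbered 6 without control replicate 3. The single fall, OTUB1, lost its call without any 1 of the control libraries and CD replicates 1 and 2, and 2 other genes were lower without CD replicate 1. OTUD1 was at 4.37, 3.54 and 3.31 CPM in control and 71.3, 60.9 and 65.8 CPM in CD (4.14 ± 0.17, edgeR adjusted p = 1.6e-07). TNFAIP3 (A20), an inhibitor of NF-κB signaling, was at 6.81, 8.17 and 9.75 CPM in control and 124, 110 and 88.1 CPM in CD (3.70 ± 0.19). These 2 genes moved by more than any USP gene.

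**Figure D5:**
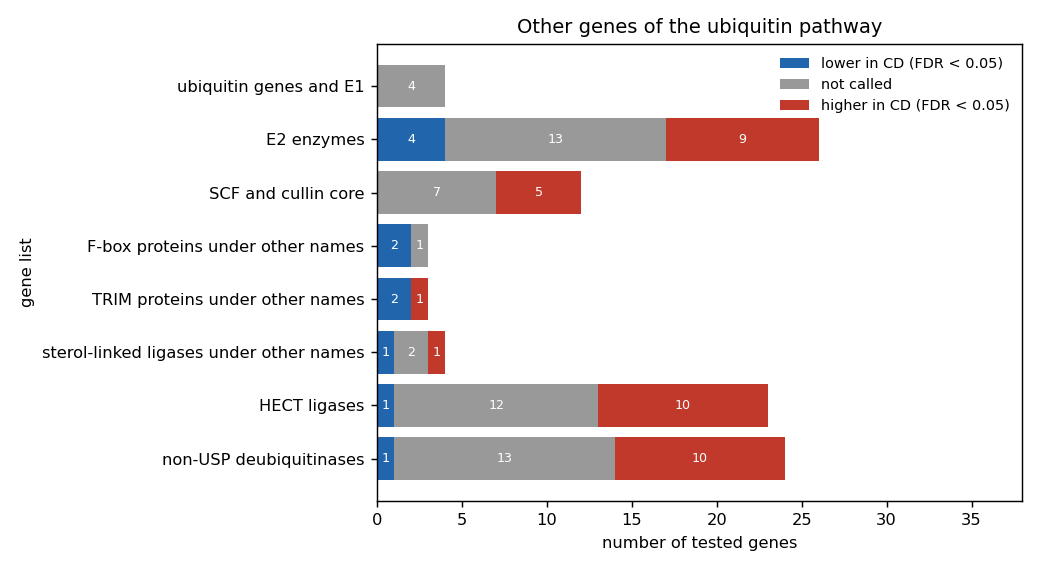
Number of tested genes called as lower, not called and called as higher in CD (edgeR adjusted p under 0.05) in each list of other genes of the ubiquitin pathway. HECT ligases and non-USP deubiquitinases each have 10 genes higher and 1 lower.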

How the data were processed

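RNA-seq of Mv1Lu cells gave 3 control and 3 CD libraries, grouped by the sample labels. The submitters' processing notes name fastp 0.20.1, STAR 2.7.2a, R 4.0.3 and DESeq2 1.30.1. The counting program and its use of strand are not given in the sources used here, so genes that overlap others or have near-identical copies are uncertain. By the neighbours in RefSeq (assembly ASM_NN_V1, where 186 of 195 members matched), 4 pairs of members lie next to each other: TRIM17 and TRIM11, TRIM7 and TRIM41, USP50 and USP8, TRIM65 and TRIM47. The authors deposited raw counts per gene. Rows of reads assigned to no gene held 29.3% to 47.2% of the reads and were left out. The normalized files were not used, because their identifiers did not match those of the counts.

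These counts went into edgeR 4.0.16 (R 4.3.3), filtered by filterByExpr (minimum count 10, total 15), scaled by TMM and tested with glmQLFit (robust) and glmQLFTest over all 6 libraries. P-values were adjusted by Benjamini-Hochberg over the 12148 genes tested and called at 0.05. The SE is the log2 fold change divided by the square root of F, and the median SE over the tested members was 0.17. CPM used TMM-scaled library sizes, and no gene length was applied. For 1 gene alone, exact permutation of these groups gives no p under 0.1. Replicates of a group differed by more than sampling noise. The fitting code was tested on simulated data.

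Members and lists were chosen with earlier results of these data known, and the lists are described by counts only. Genes named are, in each family, the 4 highest and 4 lowest called members whose groups do not overlap, all members of the sterol and muscle atrophy lists, the 3 of smallest adjusted p in other member lists and the 2 in other lists (all sterol-linked ligases and F-box proteins with other names), and those whose call depends on the setting. FBXO6, PML and the genes named for gaining or losing a call in a role list were named after their values were seen. Some genes that the rule names are not reported here. Alternatives were DESeq2 1.42.0, limma-voom (limma 3.58.1), 3 other scalings, no filter, at least 50 counts in 3 libraries, a replicate block, an adjusted p under 0.01 and leaving out each library. Counts of the role lists without each library, and family medians over the genes of the edgeR filter, were added after seeing the data.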

Additional observations from a re-analysis of the deposited data

How the results depend on the processing

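Of the 51 members called higher, 26 were called in all 14 alternative fits, and 3 more (RNF223, FBXL16 and FBXL2) in every fit that tested them. RNF223 had passed the filter through the CD libraries alone, so its calls are not taken as support. Of the 24 called lower, 15 were called in all 14. Of 66 named genes tested, 65 kept their direction in each of the 15 alternative settings that tested them, and 50 kept their call. The exception in direction was RPS27A, which was not called. The setting with an adjusted p under 0.01 reused the edgeR fit of the results, so no direction could change there. At an adjusted p under 0.01, 31 members were higher, with 5 TRIM and 0 USP genes among them, and 3 TRIM and 4 RNF genes were lower. For USP rises, DESeq2 gave 3 at that threshold, and 5 had an unadjusted edgeR p under 0.05. On leaving out 1 library, members called higher ranged from 32 to 58 and lower from 15 to 28. Over all genes the ranges were 2216 to 3616 and 2194 to 3606. By family the ranges were 5 to 10 and 2 to 6 (TRIM), 13 to 23 and 4 to 8 (RNF), 0 to 7 and 5 to 9 (USP) and 12 to 19 and 4 to 7 (FBX). The USP median ranged from -0.188 to 0.0753 and the FBX median from 0.29 to 0.41. Without control replicate 3, which gave 0 USP rises in edgeR, 3 had an unadjusted p under 0.05. The FBX median was 0.31 with DESeq2, 0.37 with DESeq2 size factors, 0.42 with upper-quartile scaling, 0.41 with total counts and 0.32 with no filter. The DESeq2 and unfiltered fits also covered low-count genes, and over the 41 genes of the edgeR filter they gave 0.365 and 0.387. Deviations of same-numbered libraries correlated at -0.0197, -0.396 and -0.197. This gave no sign of pairing, but with 3 libraries per group it cannot exclude that same-numbered libraries were handled together. With the replicate number as a block, 43 members were higher and 20 lower, with 3 TRIM genes lower. The causes were not tested. Of the 42 members not tested, 9 had 0 counts in every library, and depth and lack of expression cannot be told apart for the others. RNF223 rests on 8 control reads.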
